A study of Homo sapiens with 18 samples.

Results

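SNARE proteins, the membrane-anchored proteins that pull a transport vesicle and its target membrane together until they fuse, were followed at the RNA level in HEK293doxERN2 cells. The 37 genes considered are the syntaxins, the VAMPs, the SNAP proteins and the SNAREs that work between the endoplasmic reticulum (ER) and the Golgi. A gene was kept where its row held at least 10 reads in 3 or more of the 18 libraries, a rule met by 36 of the 37 and by 15150 of the 25435 rows of the whole table. VAMP7, an R-SNARE of late endosomes and lysosomes, was the gene that missed the rule. VAMP5, an R-SNARE known from muscle, met it but was too low for the test, so each comparison covered 35 SNARE genes.

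HEK293 is a human embryonic kidney line, and the derivative used here carries a transgene for FLAG-tagged ERN2 that doxycycline switches on. ERN2, also called IRE1β, is the ER stress sensor of mucosal epithelial cells and a paralogue of the ubiquitous ERN1. Doxycycline was given over 24 hours at 0, 10 or 100 ng/mL, called No, Low and High ERN2, and within each dose cells received either DMSO vehicle (control) or 200 nM thapsigargin (stress) for 3 hours, with 3 libraries in each of the 6 groups. Thapsigargin blocks the calcium pump of the ER and so disturbs protein folding there. All groups carry the transgene and all come from 1 cell line. No group without the transgene received doxycycline, so an effect of doxycycline itself cannot be told apart from an effect of ERN2. The labels do not say whether the 3 libraries of a group came from separate cultures, so p-values measure the spread between these libraries, which may be technical.

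A SNARE complex is a bundle of helices to which each partner adds a Qa, Qb, Qc or R helix, and proteins of the SNAP family bring the Qb and Qc helices together in 1 chain. Different sets of SNAREs serve different steps. STX5 with GOSR2, BET1 and SEC22B, or with GOSR1, BET1L and YKT6, acts between the ER and the Golgi and within the Golgi. STX18 with BNIP1, USE1 and SEC22B takes Golgi vesicles back to the ER, and other sets act at the plasma membrane, the endosomes, the lysosome and the autophagosome. During ER stress the IRE1 enzymes splice XBP1 mRNA, and the XBP1 protein made from it is known to raise genes of the secretory pathway.

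At the starts counted for the SNARE genes searched, only 2 genes had a match to a motif known from the unfolded protein response. The sequences directly upstream of those 2 starts are shown. Both are 30 bases long, end at the base before the RefSeq transcription start in GRCh38.p14, and have the matched letters in capitals. STX5 is read from chr11:62832052-62832081 on the minus strand and GOSR2 from chr17:46923130-46923159 on the plus strand.
STX5: gggttacgtgtaggTGACGTGGccgcttcc
GOSR2: ggggctgtgagGACGTGttccgaggaagcc

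The search covered the 250 bases before the start of the 33 SNARE genes, of 37, with an entry in the RefSeq promoter table, on both strands. For a SNARE gene with several starts only 1 start was counted, while the shares of all promoters count each start. The UPR element TGACGTGG was found in 1 of the 33, STX5, and in 0.612% of all 35116 promoters. Its inner letters GACGTG, which every TGACGTGG also holds, were found in 2 of the 33, STX5 and GOSR2, and in 6.5% of all promoters. SNAP47 held GACGTG on the other strand before a start that was not counted, within chr1:227734746-227734995. The ER stress elements ERSE and ERSE-II, searched in their consensus form, were found in 0 of the 33 and in 0.074% and 0.0513% of all promoters. GENCODE 29 lets both genes begin further upstream, at 62832088 for STX5 and 46923075 for GOSR2, so both matches lie inside its gene bounds. A match describes the letters and not the binding of a factor.

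Library totals ran from 14876416 to 24652240 reads on genes. ERN2 itself, in CPM (reads scaled to a common library size by TMM), was at 7.92 ± 1.30 (SD, n = 3 here and below) in No, 35.7 ± 18.4 in Low and 266 ± 36.1 in High ERN2 control libraries, which is the order of the labels. XBP1 was at 78.0 ± 1.22, 140 ± 8.73 and 159 ± 9.85 CPM in the same control groups and at 488 ± 14.7, 423 ± 48.7 and 209 ± 13.8 CPM under thapsigargin. The RNA extraction text of the labels speaks of colon crypts, so markers of both were read. The HEK293 markers VIM, CDH2, NEFL, NEFM and PAX2 were detected in each library, with VIM at 1358 CPM or more, and CDH2 was lower in High than in No ERN2 control cells by a log2 fold change of -0.90 (SE 0.0968). Of 9 colon epithelial markers, 7 (MUC2, KRT20, VIL1, CDX1, CA1, CEACAM5 and SLC26A3) did not exceed 0.242 CPM in any library, while CDX2 ran from 3.21 to 8.94 CPM and LGR5 from 8.39 to 36.0 CPM. The libraries differed in how levels followed GC content, also within groups. The Spearman correlation across genes between GC content and a library's deviation from the mean of all 18 ran from -0.676 in High ERN2 stress replicate 3 to 0.65 in Low ERN2 control replicate 3. In bulk RNA, fewer cells with a transcript and less transcript per cell cannot be told apart.

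In No ERN2 control cells the SNARE genes covered a wide range of levels. Per kilobase of the longest coding transcript, VAMP3, an R-SNARE of recycling endosomes, was highest at 58.4 ± 7.06 CPM per kilobase. STX5 followed at 41.5 ± 1.54, VAMP2 at 37.2 ± 4.11, YKT6 at 33.3 ± 2.42 and SNAP29 at 30.2 ± 1.09 CPM per kilobase. From STX5 to SNAP29, each gene lay within the summed SDs of the next in this order. The lowest were SEC22A, a relative of SEC22B, at 3.67 ± 0.573, STX1A at 2.75 ± 0.0184, VAMP4 at 2.29 ± 0.602, SNAP25 at 0.451 ± 0.208 and VAMP5 at 0.187 ± 0.0575 CPM per kilobase. VAMP7 was listed at 0.00641 ± 0.0111 CPM per kilobase, but RefSeq places this gene on both sex chromosomes, so its count is uncertain.

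Differences between groups were taken from the quasi-likelihood test of edgeR over all genes, and a gene was called changed at an adjusted p under 0.01. The tests of doxycycline in control cells asked which SNARE genes followed ERN2 without thapsigargin. At 100 ng/mL, 2 of the 35 SNARE genes rose, STX5 and BET1L, and 0 fell, beside 0.838% of all genes called higher and 7.49% called lower. Before adjustment, 10 were higher and 0 lower at a p under 0.05, beside 12.2% and 17.1% of all genes. DESeq2 called the same number, 2 higher and 0 lower, beside 1.78% and 8.96% of all genes. The median log2 fold change was 0.016 over the SNARE genes and -0.0068 over all genes. STX5, BET1 and BET1L are on a list of genes that the study drew from these same libraries, so their direction here is not independent evidence.

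At 10 ng/mL, 0 SNARE genes were called by edgeR, beside 0.138% of all genes called higher and 0.0552% lower. Of the 35, 7 were higher and 2 lower at an unadjusted p under 0.05, beside 14% and 16.5% of all genes. DESeq2 called STX5 and BET1L higher and 0 lower, beside 0.93% and 2.39% of all genes. The smallest p were those of STX5, at a log2 fold change of 0.60 (SE 0.107, adjusted p = 0.0212), BET1L, at 0.50 (SE 0.12, adjusted p = 0.0713), and YKT6, at 0.39 (SE 0.129, adjusted p = 0.0889). This comparison turned on 1 library. Without Low ERN2 control replicate 1, edgeR called 3 SNARE genes higher (STX5, BET1L and YKT6) and 1 lower (STX17), beside 8.05% and 10.7% of all genes. That library had a correlation with GC content of 0.0661, while the other libraries of its group were at 0.611 and 0.65, and across genes the fold change at 10 ng/mL followed GC content with a Spearman correlation of 0.688. After a correction of each library for GC content and transcript length, chosen after the data were seen, 0 SNARE genes were called by edgeR, beside 0.4% of all genes called higher and 0.621% lower.

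Between 10 and 100 ng/mL in control cells, edgeR called 0.0137% of all genes higher and 2.43% lower, and DESeq2 0.0918% and 5.96%. Both called 0 SNARE genes in either direction. At an unadjusted p under 0.05, 3 were higher and 1 lower, beside 3.4% and 12.7% of all genes. STX3, a plasma membrane syntaxin, had a log2 fold change of 0.28 (SE 0.106, adjusted p = 0.212), STX12, an endosomal syntaxin, 0.32 (SE 0.126, adjusted p = 0.226) and SEC22B 0.32 (SE 0.141, adjusted p = 0.3003).

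Thapsigargin in No ERN2 cells changed more SNARE genes than either dose of doxycycline did. Of the 35, 6 rose (STX5, BET1L, GOSR2, STX18, BNIP1 and STX1A) and 2 fell (VAMP3 and VAMP8), beside 6.45% of all genes called higher and 4.74% lower. DESeq2 also called 6 higher and 2 lower, the same 8 genes, beside 8.73% and 7.52% of all genes. Before adjustment, 7 were higher and 4 lower at a p under 0.05, beside 18.8% and 17.2% of all genes. The median log2 fold change was 0.0042 over the SNARE genes and -0.0066 over all genes.

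Thapsigargin in Low ERN2 cells gave 0 SNARE genes in either direction with edgeR, beside 1.16% of all genes called higher and 0.294% lower. Of the 35, 7 were higher and 5 lower at an unadjusted p under 0.05, beside 13.6% and 11% of all genes. DESeq2 called GOSR2 higher and VAMP3 and VAMP8 lower, beside 4.99% and 3.08% of all genes. The smallest p were those of GOSR2, at a log2 fold change of 0.49 (SE 0.125, adjusted p = 0.0438), VAMP4, at 0.60 (SE 0.155, adjusted p = 0.0456), and VAMP3, at -0.44 (SE 0.116, adjusted p = 0.0480). Without Low ERN2 stress replicate 3, 1 SNARE gene was called, VAMP8, and it was lower, beside 2.47% of all genes called higher and 0.846% lower.

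Thapsigargin in High ERN2 cells also gave 0 SNARE genes with edgeR, beside 0.18% of all genes called higher and 0.0208% lower. At an unadjusted p under 0.05, 5 were higher and 4 lower, beside 14.6% and 12.3% of all genes. DESeq2 called 0 higher and SNAP47 lower, beside 2.01% and 3.6% of all genes. The smallest p were those of SNAP47, at a log2 fold change of -0.61 (SE 0.154, adjusted p = 0.0556), STX18, at 0.51 (SE 0.15, adjusted p = 0.0845), and SEC22C, at -0.45 (SE 0.145, adjusted p = 0.102). Without High ERN2 stress replicate 1, edgeR called GOSR1, STX18, VAMP4 and STX17 higher and SNAP47 lower, beside 9.78% and 7.84% of all genes. That library had a correlation with GC content of 0.164, against -0.455 and -0.676 in the other libraries of its group.

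**Figure D1:**
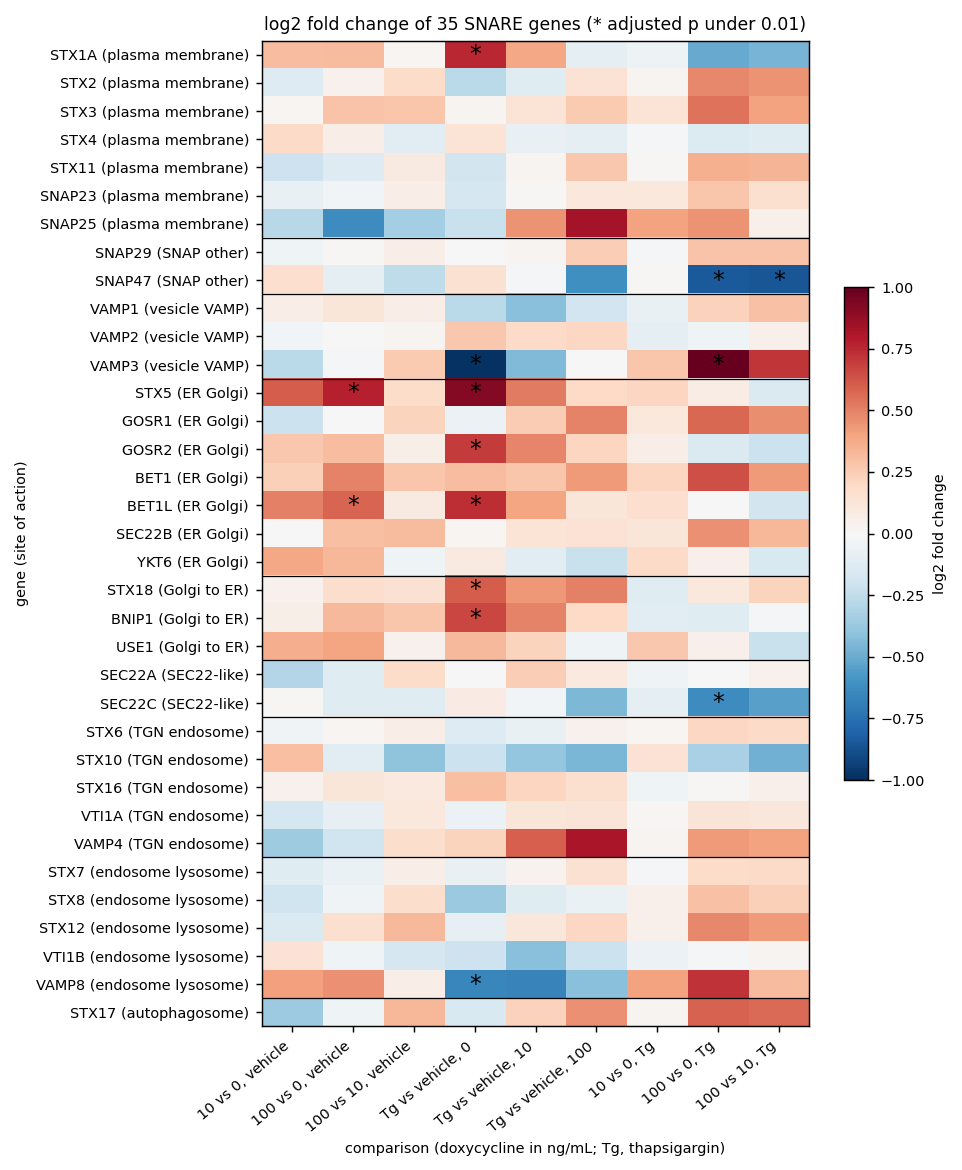
Each row is 1 of the 35 SNARE genes tested, sorted by its site of action, and each column is 1 of the 9 pairwise comparisons. Colour gives the log2 fold change from -1 to 1 and a star marks an adjusted p under 0.01. The stars of thapsigargin in cells without doxycycline sit on 5 genes of the ER and Golgi steps and on STX1A, VAMP3 and VAMP8, and the stars of High ERN2 under thapsigargin on SNAP47, VAMP3 and SEC22C.

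With thapsigargin present, doxycycline at 10 ng/mL gave 0% of all genes in either direction with edgeR. DESeq2 gave 0.0174% higher and 0.321% lower, and both gave 0 SNARE genes. Before adjustment, 2 were higher and 0 lower at a p under 0.05, beside 1.23% and 2.99% of all genes. VAMP3 had a log2 fold change of 0.28 (SE 0.112), VAMP8 0.40 (SE 0.173) and YKT6 0.19 (SE 0.125), all at an adjusted p of 0.978. In this comparison same-numbered libraries deviated together. With the replicate number as a block, edgeR called 1.36% of all genes higher and 2.53% lower but again 0 SNARE genes.

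At 100 ng/mL with thapsigargin, 1 SNARE gene was higher than without doxycycline, VAMP3, and 2 were lower, SNAP47 and SEC22C, beside 1.53% of all genes called higher and 9% lower. Of the 35, 9 were higher and 3 lower at an unadjusted p under 0.05, beside 16.3% and 19.3% of all genes. DESeq2 called 5 higher, adding STX2, STX3, GOSR1 and VAMP8, and the same 2 lower, beside 4.99% and 11.9% of all genes. The median log2 fold change was 0.19 over the SNARE genes and 0.044 over all genes. Without High ERN2 stress replicate 1 the calls rose to 8 higher (STX2, STX3, VAMP3, GOSR1, BET1, VAMP4, STX12 and STX17) and 2 lower (SNAP47 and SEC22C), beside 13.5% and 13.7% of all genes.

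Set against 10 ng/mL instead, 0 SNARE genes were higher and 1 was lower, SNAP47, beside 0.235% of all genes called higher and 5.32% lower. At an unadjusted p under 0.05, 7 were higher and 3 lower, beside 14.3% and 17.4% of all genes. DESeq2 called VAMP3 higher and SNAP47 lower, beside 3.13% and 8.96% of all genes. VAMP3 itself was at a log2 fold change of 0.72 (SE 0.157, adjusted p = 0.01003), just outside the threshold. Without High ERN2 stress replicate 1, VAMP3, GOSR1 and STX17 were called higher and SNAP47 lower, beside 9.54% and 8.9% of all genes.

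Whether the response to thapsigargin differed with ERN2 was tested as an interaction over 12 libraries. For Low against No ERN2, edgeR called 0% of all genes in either direction, and DESeq2 0% higher and 0.00968% lower. Both called 0 SNARE genes. Before adjustment, 1 was higher and 0 lower at a p under 0.05, beside 2.68% and 1.79% of all genes. The smallest p were those of VAMP3, with a difference in log2 fold change of 0.55 (SE 0.161), GOSR1, with 0.32 (SE 0.153), and BET1L, with -0.33 (SE 0.158), all at an adjusted p of 0.779. For High against No ERN2, 0 SNARE genes were called by edgeR, beside 0.00677% of all genes called higher and 0.0339% lower. Of the 35, 6 were higher and 7 lower at an unadjusted p under 0.05, beside 15.6% and 9.15% of all genes. DESeq2 called VAMP3 higher and SNAP47 lower, beside 1.11% and 1.64% of all genes. The smallest p were those of VAMP3, with a difference of 1.07 (SE 0.205, adjusted p = 0.0278), SNAP47, with -0.68 (SE 0.178, adjusted p = 0.0738), and STX1A, with -0.76 (SE 0.238, adjusted p = 0.0936). Without High ERN2 stress replicate 1, VAMP3 and GOSR1 were called higher and SNAP47 lower, beside 5.79% and 2.82% of all genes.

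STX5 is the Qa-SNARE shared by the ER-to-Golgi and intra-Golgi complexes. It lies on chromosome 11 from 62806897 to 62832088 on the minus strand in GRCh38. Its level in No ERN2 control libraries was 77.6, 72.2 and 73.8 CPM. It was 105, 115 and 120 CPM in Low and 120, 152 and 110 CPM in High ERN2 control libraries. Every control library with doxycycline was thus above every one without it, and the libraries of both doses overlapped. At 100 ng/mL the log2 fold change was 0.78 (SE 0.129, adjusted p = 0.00118), a fold of 1.71, and the call held with each library left out. Under thapsigargin STX5 was at 122, 169 and 128 CPM in No, 135, 195 and 156 CPM in Low and 156, 151 and 116 CPM in High ERN2 libraries, and these 3 groups overlapped. Thapsigargin raised it in No ERN2 cells by a log2 fold change of 0.92 (SE 0.129, adjusted p = 0.000366), and this call too held with each library left out. The log2 fold change with thapsigargin was 0.52 (SE 0.144, adjusted p = 0.0574) in Low and 0.20 (SE 0.162) in High ERN2 cells, where control libraries were already higher. The difference between the High and No ERN2 responses was -0.64 (SE 0.219, adjusted p = 0.109).

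BET1L, also known as GS15, is a Qc-SNARE that works with STX5 inside the Golgi. It lies on chromosome 11 from 167784 to 207428 on the minus strand. Its control levels were 54.2, 49.4 and 55.1 CPM in No, 65.6, 79.0 and 80.0 CPM in Low and 72.0, 88.8 and 76.1 CPM in High ERN2 libraries. As with STX5, no library with doxycycline fell among those without it. The rise at 100 ng/mL was 0.58 on the log2 scale (SE 0.119, adjusted p = 0.00483). This call was lost on leaving out any of 4 of the 6 libraries. The adjusted p was 0.0202 without High ERN2 control replicate 3 and 0.0218, 0.0209 and 0.0164 without No ERN2 control replicates 1, 2 and 3. Under thapsigargin BET1L was at 79.0, 91.1 and 91.9 CPM in No, 90.6, 107 and 97.1 CPM in Low and 92.9, 86.2 and 70.8 CPM in High ERN2 libraries. In No ERN2 cells thapsigargin raised it by 0.74 on the log2 scale (SE 0.112, adjusted p = 0.000619), a call kept with each library left out.

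BET1, the Qc-SNARE of ER-derived vesicles, is less abundant. Its control levels were 13.6, 17.5 and 14.9 CPM in No, 19.6, 17.9 and 16.6 CPM in Low and 22.3, 22.0 and 20.6 CPM in High ERN2 libraries. High ERN2 libraries lay above all others, with a log2 fold change over No ERN2 of 0.50 (SE 0.138, adjusted p = 0.0300) that did not pass the threshold. Under thapsigargin it was at 17.6, 24.5 and 14.3 CPM in No, 21.4, 23.8 and 20.3 CPM in Low and 23.3, 29.6 and 31.6 CPM in High ERN2 libraries, and the log2 fold change with thapsigargin in No ERN2 cells was 0.31 (SE 0.188).

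GOSR2, also called membrin, is the Qb-SNARE that pairs with BET1 and SEC22B, and lies on chromosome 17 from 46923075 to 46975524 on the plus strand. It was at 68.7, 72.2 and 78.2 CPM in No ERN2 control and at 105, 132 and 115 CPM in No ERN2 stress libraries. These groups were well apart, and the rise with thapsigargin was 0.70 on the log2 scale (SE 0.117, adjusted p = 0.00121), with an adjusted p of 0.0106 without No ERN2 control replicate 1. In Low ERN2 cells it was at 83.4, 88.9 and 90.9 CPM in control and 112, 142 and 114 CPM in stress libraries. In High ERN2 cells it was at 87.6, 94.3 and 89.5 CPM in control and 104, 98.8 and 103 CPM in stress libraries. The stress libraries were the higher ones at each dose, and the log2 fold change was 0.49 in Low (SE 0.125) and 0.22 in High ERN2 cells (SE 0.122, adjusted p = 0.268).

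Among the 7 ER and Golgi genes of the 35, the median log2 fold change in control cells was 0.27 at the lower dose and 0.33 at the higher dose, beside medians of 0.014 and 0.016 over the 35. At the lower dose the median over all genes in the tertile with the highest GC content was 0.26, and at the higher dose 0.15. The 7 genes ran from 36% GC (BET1) to 56.5% GC (BET1L). At 100 ng/mL, 6 of the 7 had an unadjusted p under 0.05 and were higher, beside 12.2% of all genes. Of these, 2 passed the threshold, beside 0.838% of all genes called higher. The exception was GOSR1, the Qb-SNARE of intra-Golgi traffic, at a log2 fold change of -0.0036. STX5, BET1 and BET1L, among the 7, are on the list the study drew from these same libraries. The counts at 100 ng/mL are therefore not independent evidence. With thapsigargin in No ERN2 cells the median of the 7 was 0.31 and 3 rose, beside 6.45% of all genes called higher. GOSR1 was at -0.055 there on the log2 scale, SEC22B, the R-SNARE of ER-derived vesicles, at 0.019 and YKT6, a lipid-anchored R-SNARE, at 0.087. SEC22B has near-identical copies in the genome, so its count is uncertain. With thapsigargin in Low and High ERN2 cells the median of the 7 was 0.28 and 0.20, beside 0.12 and 0.14 over the 35. Under thapsigargin, against No ERN2, it was 0.17 at 10 and 0.078 at 100 ng/mL, beside 0.029 and 0.19. For High against Low ERN2 under thapsigargin it was -0.14, beside 0.16. In the Low and High ERN2 interactions it was -0.19 and -0.22, beside -0.0032 and 0.20.

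**Figure D2:**
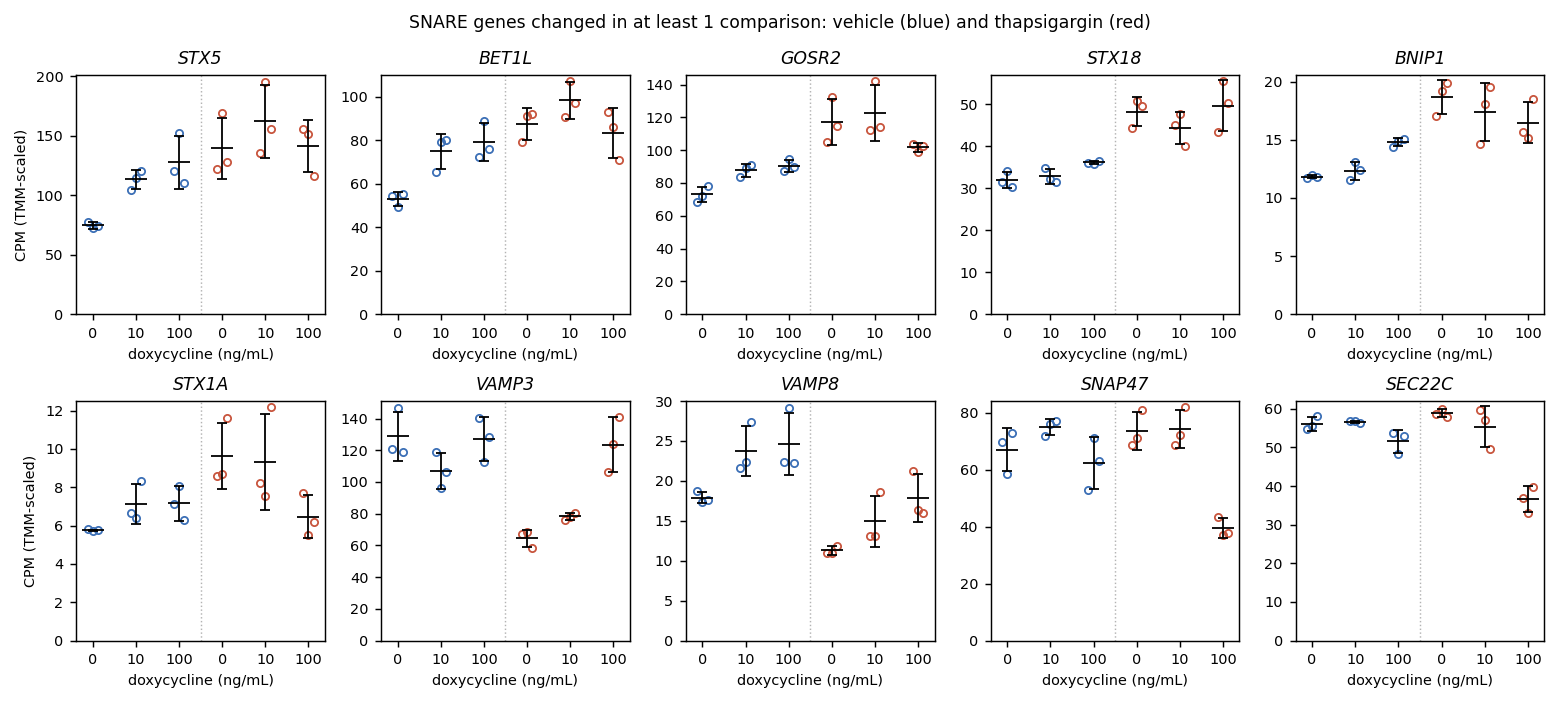
Each panel is 1 SNARE gene called changed in at least 1 comparison, with doxycycline on the horizontal axis and CPM from 0 on the vertical axis. Open circles are libraries, blue with vehicle and red with thapsigargin, and the black bar and whiskers are the mean and SD of 3 libraries. STX5 and BET1L climb with doxycycline in the blue groups, VAMP3 is low in the red groups at 0 and 10 ng/mL and not at 100 ng/mL, and SNAP47 and SEC22C are lowest in the red group at 100 ng/mL.

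Of the 3 genes of the step from the Golgi back to the ER, STX18, BNIP1 and USE1, 2 rose with thapsigargin in No ERN2 cells, beside 6.45% of all genes called higher. In Low and High ERN2 cells edgeR and DESeq2 called 0 of the 3. There 2 and 1 were higher at an unadjusted p under 0.05, beside 13.6% and 14.6% of all genes. STX18, its Qa-SNARE on the ER (chromosome 4, 4415742 to 4542346, minus strand), was at 31.5, 34.1 and 30.2 CPM in No ERN2 control and 44.2, 50.8 and 49.5 CPM in No ERN2 stress libraries. The groups were separate and the log2 fold change was 0.60 (SE 0.116, adjusted p = 0.00281). In Low ERN2 cells control libraries were at 34.8, 32.1 and 31.5 CPM and stress libraries at 45.0, 47.6 and 40.1 CPM, and in High ERN2 cells they were at 36.1, 35.7 and 36.5 CPM against 43.3, 55.4 and 50.3 CPM. STX18 was thus higher with thapsigargin at each dose, without overlap, although only the No ERN2 comparison passed the threshold. Of the genes called with thapsigargin in No ERN2 cells it kept the largest log2 fold change in High ERN2 cells, 0.51.

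BNIP1, the Qb-SNARE of the same complex (chromosome 5, 173144442 to 173164387, plus strand), was at 11.7, 12.0 and 11.8 CPM in No ERN2 control and 17.0, 19.2 and 19.8 CPM in No ERN2 stress libraries. It rose by 0.67 on the log2 scale (SE 0.133, adjusted p = 0.00348). In Low ERN2 cells it was at 11.5, 13.1 and 12.4 CPM in control and 14.6, 18.0 and 19.5 CPM in stress libraries. In High ERN2 cells it was at 14.4, 14.9 and 15.1 CPM in control and 15.7, 15.2 and 18.5 CPM in stress libraries, the narrowest gap of the 3 doses. USE1, the Qc-SNARE, had a log2 fold change of 0.32 in No ERN2 cells (SE 0.154) and was not called. The calls of STX18 and BNIP1 were both lost without No ERN2 control replicate 1 (adjusted p 0.0148 and 0.0176), without No ERN2 control replicate 3 (0.0144 and 0.0135) and without No ERN2 stress replicate 2 (0.0136 and 0.0139).

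At the plasma membrane, STX1A, the syntaxin of synaptic release (chromosome 7, 73699206 to 73719672, minus strand), was at 5.80, 5.72 and 5.74 CPM in No ERN2 control and 8.59, 8.69 and 11.6 CPM in No ERN2 stress libraries. The log2 fold change was 0.75 (SE 0.171, adjusted p = 0.00731), and the call was lost with any 1 of the 6 libraries left out, at an adjusted p between 0.0128 and 0.0287. In Low ERN2 cells it was at 6.65, 6.39 and 8.34 CPM in control and 8.23, 7.53 and 12.2 CPM in stress libraries. In High ERN2 cells it was at 7.15, 8.08 and 6.26 CPM in control and 7.71, 5.52 and 6.17 CPM in stress libraries, so the groups overlapped at both doses. The other 6 genes of this site, STX2, STX3, STX4, STX11, SNAP23 and SNAP25, gave 0 calls with edgeR in 66 tests of 1 gene in 1 comparison. Of these 66, 10 had an unadjusted p under 0.05, and DESeq2 made 2 calls, STX2 and STX3 in High against No ERN2 under thapsigargin. Over all genes and the same 11 comparisons, 3.6% of tests were called by edgeR, 23.9% had an unadjusted p under 0.05 and 7.38% were called by DESeq2. SNAP25, at most 1.39 CPM in any library, was too low for its fold changes to be read closely.

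VAMP3, also called cellubrevin, is the R-SNARE that fuses recycling endosomes with the plasma membrane, and lies on chromosome 1 from 7771269 to 7781432 on the plus strand. It was at 121, 147 and 119 CPM in No ERN2 control and only 67.0, 68.2 and 58.4 CPM in No ERN2 stress libraries. Its log2 fold change of -0.98 (SE 0.119, adjusted p = 0.000114), a fold of 0.505, was the largest fall of the SNARE genes in any comparison. In Low ERN2 cells it was at 119, 95.9 and 106 CPM in control and 76.3, 78.2 and 80.5 CPM in stress libraries, lower with thapsigargin in each library, at a log2 fold change of -0.44. In High ERN2 cells it was at 141, 113 and 128 CPM in control and 106, 124 and 141 CPM in stress libraries, which overlapped, with a log2 fold change of 0.0024 (SE 0.154). Under thapsigargin VAMP3 was therefore higher in High than in No ERN2 cells by 0.998 on the log2 scale (SE 0.159, adjusted p = 0.000738). Its calls with thapsigargin in No ERN2 cells and for High against No ERN2 under thapsigargin held with each library left out. The difference between the responses themselves was 1.07, not called in the main edgeR fit (adjusted p = 0.0278, and 0.000274 to 0.102 over the alternatives). DESeq2 called it. So did edgeR without the filter, with the correction for GC content and length, and without High ERN2 stress replicate 1.

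**Figure D3:**
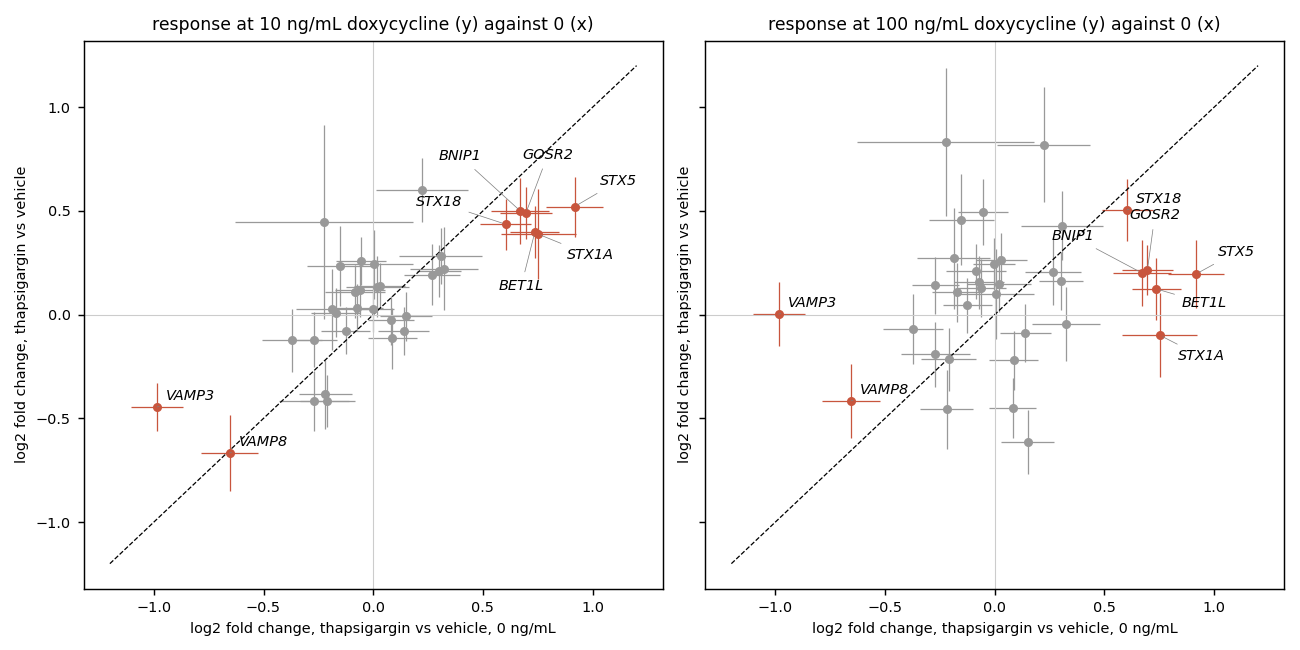
Each point is 1 of the 35 SNARE genes, with the log2 fold change by thapsigargin at 0 ng/mL doxycycline on the horizontal axis and at 10 ng/mL (left) or 100 ng/mL (right) on the vertical axis; bars are 1 SE and the dashed line marks equal responses. Red genes passed the threshold at 0 ng/mL. The 3 responses share no libraries, and on the right VAMP3 lies at 0.0024 and STX1A at -0.099 while the other 6 red genes lie between the dashed line and 0.

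The responses to thapsigargin at the 3 doses rest on separate libraries. Of the 8 SNARE genes called in No ERN2 cells, all 8 had the same sign in Low ERN2 cells and 6 in High ERN2 cells. Of all genes called in No ERN2 cells and tested in the other, 99.6% of 1608 had the same sign in Low and 80.4% of 1607 in High ERN2 cells, so the SNARE genes did not stand apart from other genes in this. The 2 that turned were VAMP3, at 0.0024, and STX1A, at -0.099 (SE 0.201).

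VAMP8, an R-SNARE of late endosomes, autophagosomes and regulated secretion that is used in mucin granule release, lies on chromosome 2 from 85561562 to 85582031 on the plus strand. It was at 18.8, 17.4 and 17.6 CPM in No ERN2 control and 11.0, 11.0 and 11.9 CPM in No ERN2 stress libraries. It fell by 0.66 on the log2 scale (SE 0.131, adjusted p = 0.00366). In Low ERN2 cells it was at 21.6, 22.3 and 27.4 CPM in control and 13.0, 13.0 and 18.7 CPM in stress libraries, and in High ERN2 cells at 22.4, 29.1 and 22.3 CPM against 21.3, 16.3 and 15.9 CPM. Stress libraries were the lower ones at each dose, and in control as in stress the libraries with doxycycline were above those without. The log2 fold change over No ERN2 was 0.46 at 100 ng/mL in control (SE 0.143, adjusted p = 0.0509) and 0.72 under thapsigargin (SE 0.179, adjusted p = 0.0132), neither past the threshold. The fall with thapsigargin lost its call without No ERN2 stress replicate 1 (adjusted p = 0.0189) or 2 (0.0149) and without No ERN2 control replicate 1 (0.0200) or 3 (0.0145).

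SNAP47, a SNAP family member found on ER and Golgi membranes, lies on chromosome 1 from 227728539 to 227781231 on the plus strand. Under thapsigargin it was at 68.6, 71.3 and 81.2 CPM in No, 68.8, 72.2 and 81.9 CPM in Low and 43.4, 37.1 and 37.9 CPM in High ERN2 libraries. The High ERN2 libraries stood clearly below the rest, by -0.84 on the log2 scale against No ERN2 (SE 0.146, adjusted p = 0.00143) and -0.86 against Low ERN2 (SE 0.157, adjusted p = 0.00355). In control cells it was at 69.6, 58.4 and 72.8 CPM in No, 71.8, 76.1 and 77.1 CPM in Low and 52.7, 71.2 and 63.1 CPM in High ERN2 libraries, where High and No ERN2 overlapped. The call against No ERN2 was lost only without High ERN2 stress replicate 2 (adjusted p = 0.0182), and the call against Low ERN2 without any of 5 libraries (adjusted p 0.0128 to 0.0429), all but High ERN2 stress replicate 1.

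SEC22C, a relative of SEC22B that has the longin fold but no SNARE helix, lies on chromosome 3 from 42547969 to 42601080 on the minus strand. Under thapsigargin it was at 58.7, 60.0 and 58.0 CPM in No, 59.7, 57.0 and 49.5 CPM in Low and 36.98, 32.99 and 39.84 CPM in High ERN2 libraries. It was again the High ERN2 stress group that lay apart, with a log2 fold change against No ERN2 of -0.62 (SE 0.146, adjusted p = 0.00949). In control cells the 3 groups were close, at 54.7, 55.6 and 58.2 CPM in No, 56.9, 56.7 and 56.3 CPM in Low and 53.7, 48.2 and 52.9 CPM in High ERN2 libraries. The call against No ERN2 was lost without any of 5 of the 6 libraries, all but High ERN2 stress replicate 1, at an adjusted p between 0.0106 and 0.0785.

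The SNAREs of the trans-Golgi network and endosomes, STX6, STX10, STX16, VTI1A and VAMP4, together with STX7, STX8, STX12 and VTI1B of endosomes and lysosomes and STX17 of autophagosomes, gave 0 calls with edgeR and 0 with DESeq2 in 110 tests of 1 gene in 1 comparison. An unadjusted p under 0.05 was found in 17 of the 110, beside the 23.9% over all genes. STX16 was at 133, 132 and 120 CPM in No ERN2 control and 156, 166 and 148 CPM in No ERN2 stress libraries, apart but at a log2 fold change of only 0.30 (SE 0.1, adjusted p = 0.0457). VAMP4 and STX17 were scattered in High ERN2 stress cells. VAMP4 was at 10.4, 18.8 and 23.8 CPM and STX17 at 63.7, 101 and 103 CPM there, with replicate 1 the low one for both.

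GC content moved with several of these results. In High against No ERN2 cells under thapsigargin the Spearman correlation across genes between fold change and GC content was -0.384, and the median log2 fold change of all genes was 0.26 in the tertile below 44.3% GC and -0.14 in the tertile with the highest GC content. VAMP3, at 42.7% GC, and SEC22C, at 43.2% GC, belong to the same tertile and moved in opposite directions, and SNAP47, at 53.9% GC, belongs to the middle tertile, whose median was 0.021. With each library corrected for GC content and transcript length, 7 SNARE genes were called higher and 2 lower in that comparison, VAMP3, SNAP47 and SEC22C among them, beside 11.9% and 11.3% of all genes. Thapsigargin in No ERN2 cells had a weaker trend, 0.145, and the same correction left 6 higher and 2 lower, the same 8 genes, beside 9.68% and 10% of all genes. For 100 ng/mL in control cells, at 0.327, it gave 8 higher and 0 lower (STX3, STX5, GOSR2, BET1, BET1L, SEC22B, YKT6 and STX12), beside 8.77% and 10.2% of all genes. In the interaction of High against No ERN2, at -0.585, it called VAMP3 higher and SEC22C lower, beside 0.731% and 0.779% of all genes. The correction was chosen after the data were seen, and what part GC content had in these calls was not tested.

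**Figure D4:**
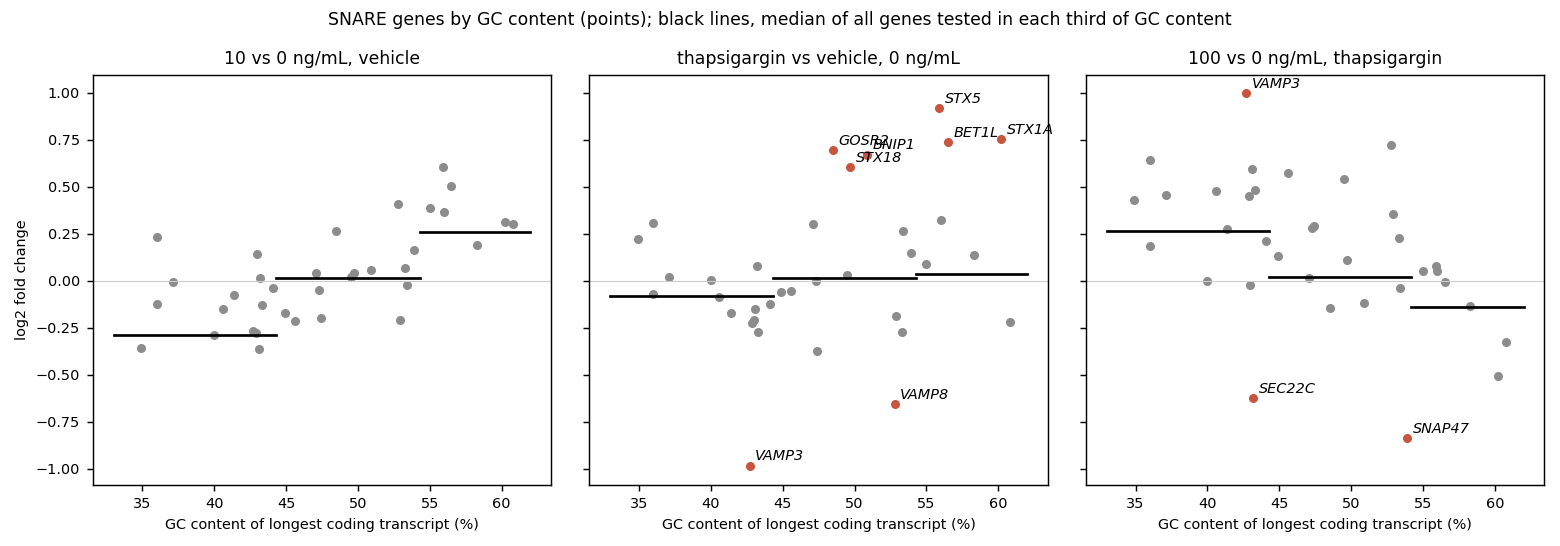
Each point is 1 SNARE gene, with the GC content of its longest coding transcript in percent on the horizontal axis and its log2 fold change in 3 comparisons on the vertical axis; red genes passed the threshold. Black lines are medians of all genes tested in each tertile of GC content, which climb with GC content on the left and descend on the right. VAMP3, SNAP47 and SEC22C all lie far from the lines on the right, while the 8 genes called in the middle panel lie far from lines that are nearly flat.

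Proteins that steer SNAREs were read from a list of 59 genes: the Sec1/Munc18 proteins that hold syntaxins, NSF and its partners that take spent complexes apart, and the tethers that catch a vesicle before fusion. At 100 ng/mL in control cells 1 of the 58 tested rose and 0 fell, beside 0.838% of all genes called higher and 7.49% lower. The gene was COG3, a subunit of the tethering complex COG of the Golgi, at a log2 fold change of 0.72 (SE 0.133, adjusted p = 0.00245). With thapsigargin in No ERN2 cells 4 of the 58 rose and 0 fell, beside 6.45% of all genes called higher and 4.74% lower. The 4 were GORASP2, which stacks Golgi cisternae, at 0.75 (SE 0.128, adjusted p = 0.00132), COG1 at 0.64 (SE 0.122, adjusted p = 0.00261), the Golgi tether GOLGA2 at 0.56 (SE 0.123, adjusted p = 0.00575) and COG3 at 0.91 (SE 0.209, adjusted p = 0.00754). COG3 in the first comparison lost its call without High ERN2 control replicate 3 (adjusted p = 0.0157) or No ERN2 control replicate 1 (0.0165) or 3 (0.0155). In the second, COG3 lost it without No ERN2 control replicate 1 (0.0353) or 3 (0.0206) or No ERN2 stress replicate 1 (0.0131) or 2 (0.0243). GOLGA2 lost it without any of the No ERN2 control libraries (0.0236, 0.0142 and 0.0188) or No ERN2 stress replicate 2 (0.0249), and GORASP2 without No ERN2 control replicate 1 (0.0108). DESeq2 called 3 and 5 of the list in these comparisons. Over all genes DESeq2 called 1.78% higher and 8.96% lower in the first and 8.73% and 7.52% in the second. In the other 9 tests edgeR called 0, and DESeq2 called 0 to 3. The 3 were for High against No ERN2 under thapsigargin, beside 4.99% and 11.9% of all genes. At an unadjusted p under 0.05, Low against No ERN2 in control cells had 13 higher and 14 lower of 59, beside 14% and 16.5%. The High ERN2 interaction had 11 higher and 3 lower of 59, beside 15.6% and 9.15%. Remaining tests had 0 to 10 higher, beside 1.23% to 16.3%, and 0 to 2 lower, beside 1.79% to 19.3%. The counts of edgeR calls also depended on single libraries. Leaving out 1 library raised some of these counts, to 17 for Low against No ERN2 in control cells without Low ERN2 control replicate 1, to 1 for thapsigargin in Low ERN2 cells without Low ERN2 stress replicate 3, and, without High ERN2 stress replicate 1, to 9 for thapsigargin in High ERN2 cells, 12 and 9 for High against No and against Low ERN2 under thapsigargin and 4 for the High ERN2 interaction. The shares of all genes called higher and lower rose there too. They were 8.05% and 10.7% for the first of these fits and 2.47% and 0.846% for the next. Without High ERN2 stress replicate 1 they were, in the order given, 9.78% and 7.84%, 13.5% and 13.7%, 9.54% and 8.9%, and 5.79% and 2.82%.

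Reads of some genes cannot be assigned with certainty, because the sources used here do not say whether counting used the strand. On the other strand, STX1A overlaps BUD23, SNAP47 overlaps JMJD4, SEC22C overlaps NKTR and SS18L2, BET1L overlaps ODF3 and SCGB1C1, and STX18 overlaps NSG1. On the same strand STX16 overlaps its read-through transcript STX16-NPEPL1.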

How the data were processed

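RNA-Seq covered 18 libraries of HEK293doxERN2 cells in 6 groups of 3, with groups and replicate numbers taken from the sample labels and each column of the table matched to its sample by the column number the labels give. The authors made libraries with a stranded mRNA kit, aligned the reads with STAR (VIPER pipeline) and deposited a table of unnormalized counts by gene symbol. The submitters' processing notes name hg38. The annotation, the versions and the strand setting are not given in the sources used here. Of the 25435 rows, 28 carry a date in place of a symbol.

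Each comparison used only its own libraries, 6 per pairwise test and 12 per interaction. Low counts were removed with filterByExpr (minimum count 10), libraries were scaled by TMM, and genes were tested in edgeR 4.0.16 under R 4.3.3 (glmQLFit, glmQLFTest). Adjustment by Benjamini-Hochberg ran over all genes, the threshold was 0.01 as in the study, and the scripts were tested on simulated data. SE is the absolute log2 fold change over the root of the F statistic. CPM were TMM-scaled over all 18 libraries. Replicates exceeded sampling noise (chi-square per degree of freedom 7.09 to 61.2), so none was a duplicate. With 3 libraries per group, the smallest two-sided p of an exact permutation test is 0.1.

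Alternatives were DESeq2 1.42.0, RLE size factors, no filter, 1 fit over all 6 groups, a replicate block, a threshold of 0.05 and each library left out. Corrections for GC content and length, with and without the block, and library totals alone were added after the data were seen. Same-numbered libraries had a correlation above 0.1 in each pair of 1 comparison only, Low against No ERN2 under thapsigargin (0.343 to 0.467). There the block left the count of changed SNARE genes at 0. Single pairs in other comparisons also exceeded 0.1. Values are given for each SNARE gene past the threshold, for the 3 with the smallest p where a comparison has none, and for STX5, BET1 and BET1L, which the study lists. Of the SNARE machinery, up to 5 genes per direction and comparison past the threshold are named. ERN2 and XBP1 checked the labels. Other SNARE genes named with values were chosen after their values were seen. The SNARE genes, the other gene lists and the motifs were chosen with earlier results of these data known. Positions, length and GC content came from GENCODE 29 (GRCh38) by symbol, and upstream sequences from RefSeq (GRCh38.p14).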

Additional observations from a re-analysis of the deposited data

How the results depend on the processing

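No named gene changed direction under any alternative in a comparison where it was called. Over 66 results for single genes and 1056 pairs of result and alternative, 952 stayed on the same side of the threshold, 53 lost it and 51 gained it. Counts of changed SNARE genes moved as follows, with the DESeq2 shares of all genes given with each comparison above. DESeq2 gave 2 for Low against No ERN2 in control cells, 3 and 1 for thapsigargin in Low and High ERN2 cells, 7 for High against No and 2 for High against Low ERN2 under thapsigargin, and 2 for the High ERN2 interaction. RLE size factors gave 2 for High against Low ERN2 under thapsigargin, beside 0.31% of all genes called higher and 4.71% lower. Without the filter the counts were 1 for Low against No ERN2 in control cells, 2 for High against Low ERN2 under thapsigargin and 1 for the High ERN2 interaction. The shares of all genes called higher and lower were 0.781% and 2.36%, 2.85% and 5.46%, and 0.174% and 0.242%, in that order. The fit with all 6 groups gave 6 for thapsigargin in No ERN2 cells, losing STX1A (adjusted p = 0.0153) and VAMP8 (0.0102), 1 and 2 for thapsigargin in Low and High ERN2 cells, and 7 and 3 for High against No and against Low ERN2 under thapsigargin. An adjusted p of 0.05 gave 1 for Low against No ERN2 in control cells, 3 for thapsigargin in Low ERN2 cells, 8 and 3 for High against No and against Low ERN2 under thapsigargin, and 1 for the High ERN2 interaction. For High against No ERN2 under thapsigargin, DESeq2 called 4.99% of all genes higher and 11.9% lower. The shares there were 3.97% and 13.6% with the fit over all 6 groups and 7.2% and 13.8% at 0.05. The 6-group fit called 5.08% and 3.39%, 3.07% and 1.43%, and 1.55% and 4.71% for thapsigargin in No, Low and High ERN2 cells. It called 2.19% and 11.5% for High against Low ERN2 under thapsigargin. At 0.05 the shares were 0.366% and 0.393% for Low against No ERN2 in control cells. They were 4.4% and 2.51% for thapsigargin in Low ERN2 cells. For High against Low ERN2 under thapsigargin they were 3.77% and 10.5%, and for the High ERN2 interaction 0.467% and 0.542%.

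For High against No ERN2 in control cells, STX5 had an adjusted p of 0.0109 and BET1L of 0.0425 with the replicate block. Blocking on the replicate number gave 0 there, beside 0.318% of all genes called higher and 4.87% lower. For thapsigargin in Low ERN2 cells it gave 11, beside 13.4% of all genes called higher and 11.4% lower. Of these, 6 were higher (STX5, GOSR2, BET1L, STX18, BNIP1 and VAMP4) and 5 lower (VAMP1, VAMP3, STX10, VTI1B and VAMP8). For High against Low ERN2 under thapsigargin it gave 0 (SNAP47 adjusted p = 0.0269), beside 0.0138% and 2.64% of all genes. SEC22C lost its call under thapsigargin with the block (adjusted p = 0.0371) and with RLE size factors (0.0109). Same-numbered pairs had a mean correlation of 0.0712 over 45 pairs, against -0.0352 for other pairs, and 21 of the 45 were above 0.1. The highest was 0.521 for High against Low ERN2 in control cells and 0.499 for thapsigargin in Low ERN2 cells. Whether libraries of the same number shared a batch was not tested.

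Correction for GC content and length, added after the data were seen, gave 8 for High against No ERN2 in control cells, 3 and 3 for thapsigargin in Low and High ERN2 cells, 9 and 5 for High against No and against Low ERN2 under thapsigargin, and 2 for the High ERN2 interaction. With the replicate block added to it the counts were 1, 8 and 2 for Low against No, High against No and High against Low ERN2 in control cells, 12 for thapsigargin in Low ERN2 cells, 1, 9 and 3 for the same comparisons under thapsigargin, and 2 for the High ERN2 interaction. The count of 12 stood beside 12.1% of all genes called higher and 13% lower. The count of 8 stood beside 7.71% and 9.81%, and that of 9 beside 11% and 10.9%.

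Leaving out single libraries, the counts ran from 0 to 4 for Low against No, 1 to 2 for High against No and 0 to 0 for High against Low ERN2 in control cells, from 3 to 7, 0 to 1 and 0 to 5 for thapsigargin in No, Low and High ERN2 cells, from 0 to 0, 1 to 10 and 0 to 4 for the same comparisons of doses under thapsigargin, and from 0 to 0 and 0 to 3 for the Low and High ERN2 interactions. The highest counts came without Low ERN2 control replicate 1 (4) and without High ERN2 stress replicate 1 (5, 10, 4 and 3), with their shares of all genes given above. A lone pair of libraries was then assumed to vary like the other group. Whether the spread between the 3 libraries of a group or depth limited the precision more was not tested gene by gene. SNAP25 and VAMP5 had the lowest CPM in No ERN2 control cells of the genes that met the rule. STX1A, at 5.75 ± 0.0385 CPM there, rested on 99 to 114 reads per library.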
